A study of Mus musculus with 6 samples.

Results

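Hox genes encode homeodomain transcription factors that give cells a position along the head-to-tail axis. The mouse has 39 Hox genes in 4 clusters, and members at matching positions of different clusters share a paralogue number. Genes with low numbers lie at the 3′ end of a cluster and are active from anterior levels, and genes with high numbers are active only further back. In the embryonic gut and its derivatives Hox genes are known mainly from the mesenchyme, and loss of the paralogue 6 genes is known to impair endocrine differentiation in the mouse pancreas. Retinoic acid and the caudal-type Cdx factors are known activators of the clusters, Polycomb complexes keep them silent, and Pbx and Meis proteins bind DNA together with Hox proteins.

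The genes described were chosen by name, as every Ensembl identifier whose mouse symbol is Hox, a cluster letter and a number. Of the 39 such symbols, 33 matched 1 of the 24389 identifiers measured, with 10 in Hoxa on chromosome 6, 9 in Hoxb on chromosome 11, 7 in Hoxc on chromosome 15 and 7 in Hoxd on chromosome 2. Hoxa13, Hoxb13, Hoxc11, Hoxc12, Hoxd4 and Hoxd12 were not analysed here. RNA came from dorsal pancreata at E13.5, from 3 Bicaudal C1 (Bicc1) knockout libraries (KO 1 to KO 3) and 3 wild-type libraries (WT 1 to WT 3), all on a mixed C57BL/6 and ICR background. The product of Bicc1 binds RNA, and the series asks which pancreatic mRNAs differ when it is missing. The labels name neither the design of the knockout allele nor a Cre line, and do not say whether a library is 1 embryo or a pool, so the spread that enters each p-value may in part be technical.

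Values are the authors' expression values per gene, whose unit is not stated and whose lowest value is 0.01, called the floor here. Each library's values summed to between 674295 and 716255, which are not read totals, so the depth is unknown. Bicc1 was between 3.96 and 4.91 in KO and between 18.2 and 19.7 in WT, and it passed limma with Benjamini-Hochberg adjustment (log2 change -1.89, adjusted p 0.00067). The first principal component, with 57.3% of the variance, set KO 1, KO 2 and WT 3 against KO 3, WT 1 and WT 2. The rank correlation across genes of GC content with a library's deviation was positive for KO 1 (0.50), KO 2 (0.61) and WT 3 (0.40). It was negative for KO 3 (-0.19), WT 1 (-0.56) and WT 2 (-0.66). Of 15 mesenchyme markers 14 had a mean of at least 1, as had all 12 epithelium markers, among them Pdx1 (9.57 to 13.49). The tissue was not sorted, so the Hox signal cannot be assigned to the mesenchyme or to any other cell type here, and fewer cells of a type and less RNA per cell cannot be told apart.

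Most Hox genes with low numbers were present in this tissue, and those of the posterior ends, apart from Hoxd11, were near the floor. A mean of at least 1 over the 6 libraries was called present, and 17 of the 33 genes met it, 14 of them with at least 1 in every library. Among paralogues 1 to 5, 10 of 14 genes were present, among paralogues 6 to 9 it was 6 of 12, and among paralogues 10 to 13 it was 1 of 7. By cluster, 7 of 10 Hoxa genes, 6 of 9 Hoxb genes, 2 of 7 Hoxc genes and 2 of 7 Hoxd genes were present. No gene was at the floor in all 6 libraries, and 6 were there in some of them.

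**Figure D1:**
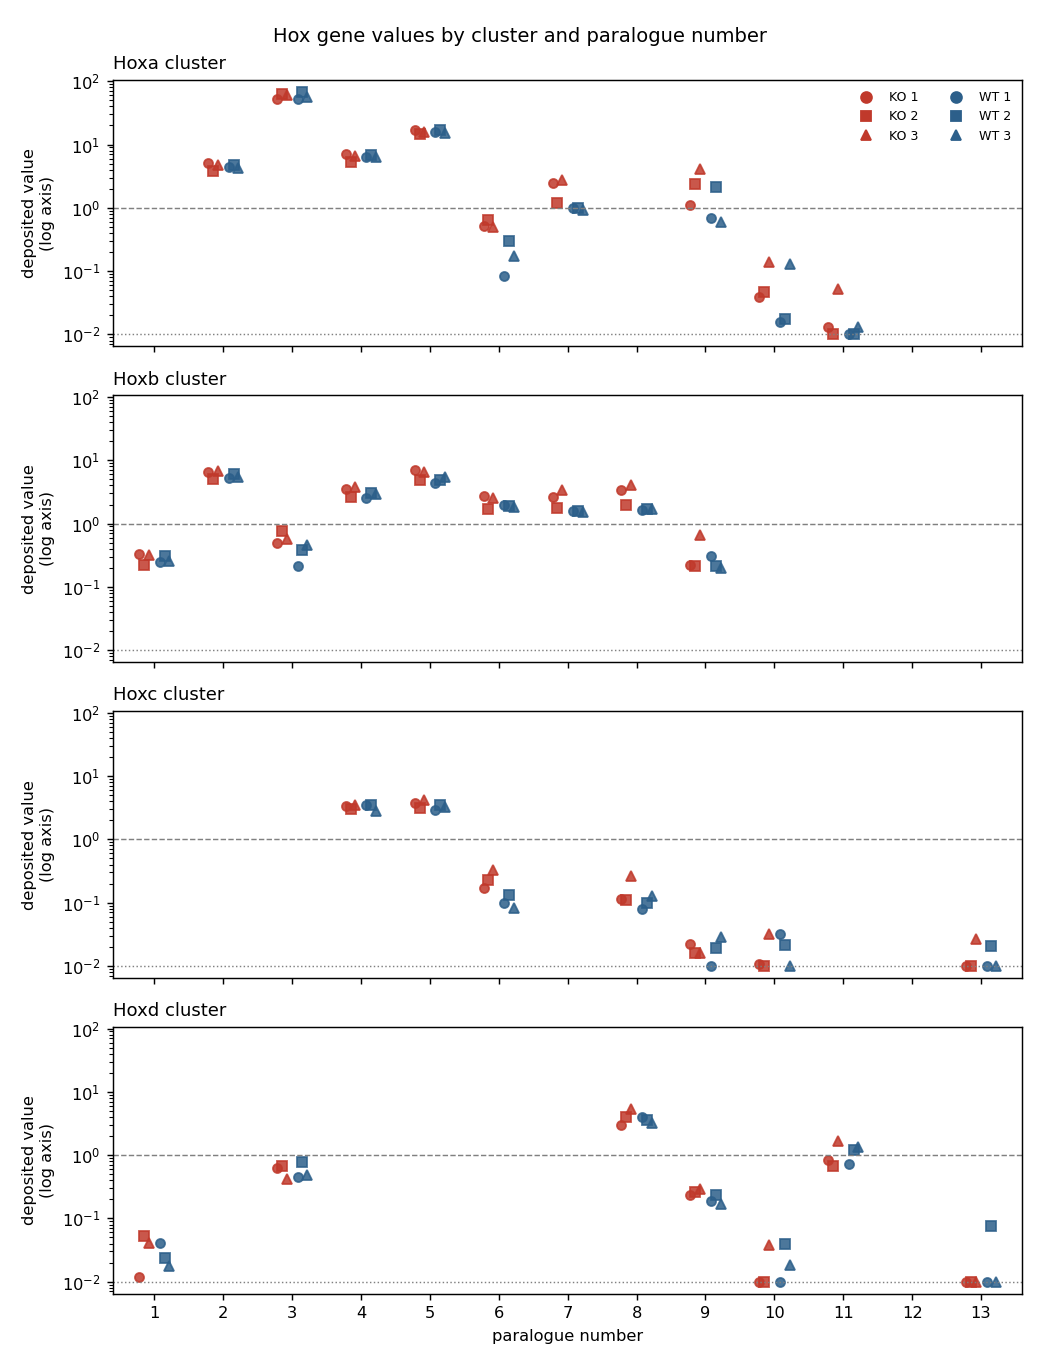
Deposited values of 32 matched Hox genes (y axis, log scale) against its paralogue number (x axis), 1 panel per cluster, with KO libraries in red and WT libraries in blue and 1 point per library. The dotted line is the floor of 0.01 and the dashed line the level of 1; paralogues 2, 4 and 5 lie above 1 in every library, and 6 of the 7 genes numbered 10 to 13 stay at or below 0.137.

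In the Hoxa cluster the highest value was that of Hoxa3, a gene needed for the thymus and parathyroid, with 51.7, 63.0 and 59.8 for KO 1 to KO 3. In WT 1 to WT 3 it was 53.1, 67.9 and 55.9, and all later values follow this library order. Hoxa5, a factor of lung and gut mesenchyme, was next, at 17.2, 14.9 and 15.7 in KO and 15.5, 16.7 and 15.3 in WT. Hoxa4 was 7.08, 5.24 and 6.60 in KO and 6.37, 6.72 and 6.35 in WT. In each of these 3 genes the KO and WT values overlapped, and the KO mean was between 97.3% and 100.1% of the WT mean. Hoxa2 (3.79 to 5.13), known for patterning the hindbrain, was also present in every library with overlapping groups.

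The top members of Hoxb were Hoxb2, another hindbrain gene, at 6.60, 5.14 and 6.78 in KO and 5.34, 6.00 and 5.52 in WT, and Hoxb5, at 6.92, 4.83 and 6.49 in KO and 4.43, 4.96 and 5.41 in WT. Hoxb4, known from blood stem cells, was 3.46, 2.63 and 3.79 in KO and 2.55, 3.08 and 2.90 in WT. In all 3 genes KO 1 and KO 3 held the highest values and KO 2 lay within or near the WT range, so the groups overlapped. Hoxb1, expressed early in the hindbrain, was below 1 in every library (0.221 to 0.329).

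Only paralogues 4 and 5 were present in the Hoxc cluster. Hoxc5 was 3.77, 3.09 and 4.13 in KO and 2.94, 3.50 and 3.25 in WT, and Hoxc4 was 3.39, 2.99 and 3.48 in KO and 3.53, 3.50 and 2.85 in WT. Both genes overlapped between the groups. The third gene by level, Hoxc6, was at 0.323 or below in every library.

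The Hoxd cluster was low apart from Hoxd8, which was 2.99, 3.99 and 5.30 in KO and 4.03, 3.597 and 3.18 in WT, with KO 1 lowest and KO 3 highest of all. Hoxd11, a gene of limb and kidney, was 0.822, 0.667 and 1.66 in KO and 0.735, 1.198 and 1.33 in WT, and was the only one of the 7 genes numbered 10 to 13 that was present. Hoxd3 was 0.617, 0.665 and 0.425 in KO and 0.458, 0.784 and 0.476 in WT, and Hoxd1 between 0.0117 and 0.0526. These genes overlapped between KO and WT as well.

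Of the 6 genes that touched the floor, 5 did so in libraries of both genotypes. Hoxa11 was 0.013, 0.01 and 0.052 in KO and 0.01, 0.01 and 0.013 in WT, and Hoxc10 was 0.0106, 0.01 and 0.0317 in KO and 0.0317, 0.0211 and 0.01 in WT. Hoxc13 was above the floor only in KO 3 (0.0271) and WT 2 (0.0203). Hoxd13, the most posterior gene of its cluster and known from digits and genitalia, was above it only in WT 2 (0.0759). Hoxd10 was 0.0382 in KO 3 and 0.01 in KO 1 and KO 2, against 0.01, 0.04 and 0.0182 in WT. The other one, Hoxc9, was at the floor only in WT 1, with 0.0224, 0.016 and 0.016 in KO and 0.01, 0.0192 and 0.0288 in WT. At such values a difference between single libraries cannot be read, since the depth is unknown. Hoxa10, the remaining gene of these numbers, was between 0.0155 and 0.137 and above the floor in every library.

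An order of levels between genes depends on the exons over which each value was taken. All 33 genes had values that were whole multiples of 0.01 divided by a whole number of bases, within the rounding of the last decimal, as a mean per base over exons would give. For 5 genes (Hoxa2, Hoxa4, Hoxa5, Hoxb1 and Hoxd8) this number equalled the exonic length in the GENCODE annotation of build GRCm38, so their values were per length over the annotated exons. Among those 5 the order was Hoxa5, Hoxa4, Hoxa2, Hoxd8 and Hoxb1, and the values of Hoxa2 and Hoxd8 overlapped (2.99 to 5.30 in Hoxd8). For Hoxa3 the number was 297 or a multiple of it, and for Hoxd11 104 or a multiple, and the annotated lengths of 6014 and 4212 bases are not multiples of these. The exons behind these values are therefore not the annotated set, and the place of Hoxa3 above and of Hoxd11 apart from its neighbours rests on an unknown gene model. In the annotation 25.4% of the exonic bases of Hoxa3 lie within exons of genes on the other strand. The share is 52.9% in Hoxb3 and 27.3% in Hoxb2, both from the antisense transcript Hoxb3os, and 20.4% in Hoxa7, from the noncoding Hoxaas3. In Hoxd3 62.3% lie within exons of other genes on the same strand, and Hoxd4 is among the genes that overlap it. Strand is not kept by the kit used, and such reads cannot be told apart.

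Between the genotypes, no Hox gene passed the test over all genes, while genes numbered 6 to 8 in Hoxa, Hoxb and Hoxc included most of those whose groups were apart. Of 33 genes, 6 had every KO value above every WT value (Hoxb3, Hoxa6, Hoxc6, Hoxa7, Hoxb7 and Hoxb8) and 0 had every KO value below. Among all 24389 genes 7.62% had KO above WT in this way, against 18.2% of the Hox genes. Only the 17 present genes entered limma on log2(value + 1), and 0 of them passed at an adjusted p of 0.05 over 13911 genes, where 0.0144% of all genes passed. At an unadjusted p of 0.05, 3 passed (Hoxa7, Hoxb7 and Hoxb8, all higher in KO), against 10.3% of all genes tested in either direction and 5.89% higher in KO. These 3 were also the tested members whose groups were apart, as were 16.4% of all genes tested in either direction and 7.67% with KO above.

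Hoxb8, a gene of the trunk that also marks a myeloid lineage, was 3.42, 2.001 and 4.03 in KO and 1.64, 1.68 and 1.67 in WT. The WT libraries lay close together, KO 2 was just above them and KO 1 and KO 3 far above. KO averaged 3.15 ± 1.04 and WT 1.67 ± 0.0198 (SD, n = 3 each), so that the first was 189% of the second. Hoxb8 had a log2 change of 0.61 (SE 0.18) and a limma adjusted p of 0.469. Hoxa7, active in trunk mesoderm and neural tube, was 2.48, 1.203 and 2.71 in KO and 1.003, 0.994 and 0.915 in WT. The same order held, with KO 3 and KO 1 high and KO 2 nearest to WT. The KO libraries averaged 2.13 ± 0.813 and the WT libraries 0.971 ± 0.0486 (SD, n = 3 each). The log2 change was 0.63 (SE 0.19), with a limma adjusted p of 0.469. Hoxb7 was 2.59, 1.79 and 3.40 in KO and 1.60, 1.60 and 1.54 in WT, a log2 change of 0.46 (SE 0.16) with a limma adjusted p of 0.469.

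**Figure D2:**
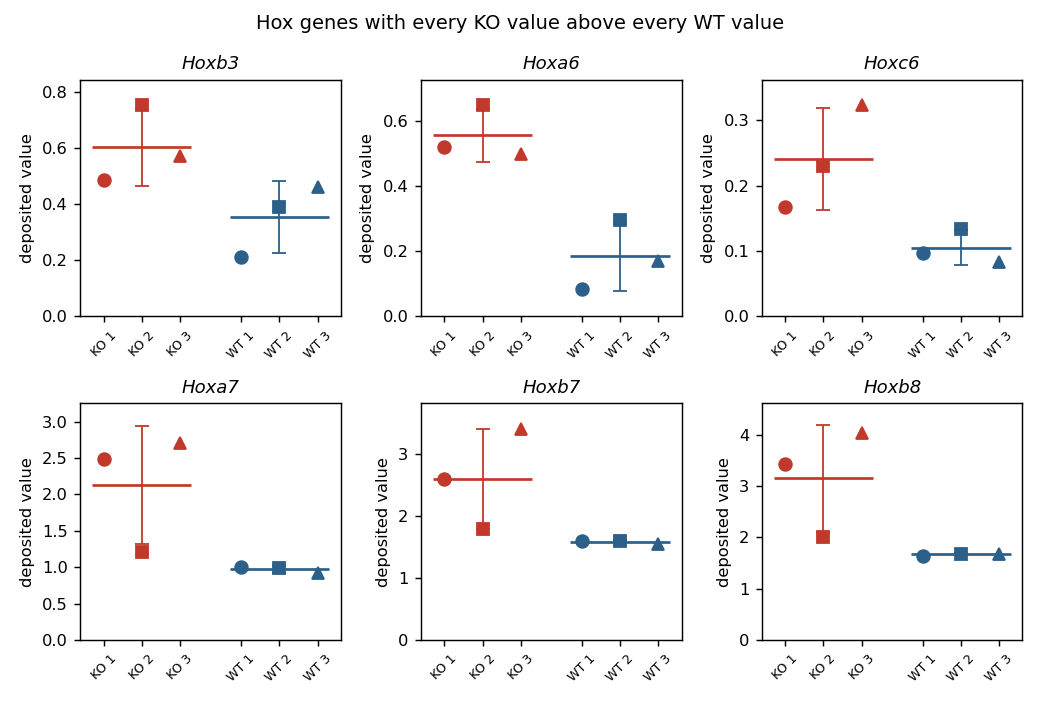
Deposited values (y axis, from 0) of the 6 Hox genes whose KO values all lie above their WT values, 1 point per library (x axis), with horizontal lines at the group means and bars of 1 SD (n = 3 each). In Hoxa7, Hoxb7 and Hoxb8 the WT libraries lie close together and KO 2 is the lowest KO library, at 1.203, 1.79 and 2.001.

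The log2 changes were larger within 1 side of the first component than within the other. Comparing KO 3 with WT 1 and WT 2, they were 0.92 for Hoxb8, 0.89 for Hoxa7 and 0.76 for Hoxb7. Comparing KO 1 and KO 2 with WT 3, they were 0.45, 0.53 and 0.32. After correction for GC content the changes were 0.49, 0.55 and 0.40, and the count of tested Hox genes with every KO value above every WT value went from 3 to 0. Without KO 2, Hoxa7 passed over all genes (log2 change 0.87, limma adjusted p 0.0496) and was the only Hox gene that did. The count with KO above WT was then 9 and that at an unadjusted p of 0.05 was 7. Over all genes 8 then passed at an adjusted p of 0.05, against 2 with all libraries. The shares of all genes apart or at that unadjusted p were not counted for this run or after GC correction. With fewer libraries groups are apart more easily, so the rise in these counts cannot be read as one of the Hox genes.

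Among the paralogue 6 genes, Hoxa6 and Hoxc6 were low and apart between the groups, and Hoxb6 was present with overlap. Hoxa6 was 0.520, 0.648 and 0.499 in KO and 0.0846, 0.297 and 0.170 in WT, and Hoxc6 was 0.168, 0.230 and 0.323 in KO and 0.0969, 0.134 and 0.0826 in WT. Both had means under 1 and were not tested. Hoxb6, the highest of the 3, was 2.69, 1.73 and 2.54 in KO and 1.98, 1.89 and 1.819 in WT, with KO 2 below all WT libraries. Its log2 change was 0.18 (SE 0.12), with a limma adjusted p of 0.53.

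Hoxa9 varied widely within both groups. It was 1.09, 2.41 and 4.15 in KO and 0.684, 2.11 and 0.590 in WT, so WT 2 lay above KO 1. Its log2 change of 0.71 (SE 0.36), the largest among the tested Hox genes, had a limma adjusted p of 0.478. Hoxb9 was 0.662 in KO 3 and between 0.196 and 0.313 in the other libraries. Hoxc8 was 0.264 in KO 3 and between 0.0786 and 0.129 in the others. Hoxd9 was 0.230, 0.260 and 0.289 in KO and 0.191, 0.235 and 0.171 in WT, apart but for WT 2. Across the 12 genes numbered 6 to 9, KO 3 was the highest library in 9, KO 1 in 1, KO 2 in 1 and WT 3 in 1. Among the 14 numbered 1 to 5 KO 3 was highest in 3 and KO 1 in 5.

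Hoxb3 was the only gene numbered 1 to 5 with groups apart, at 0.484, 0.753 and 0.571 in KO and 0.210, 0.387 and 0.459 in WT, below the level tested. Its antisense transcript Hoxb3os was 1.75, 1.76 and 2.53 in KO and 1.59, 1.99 and 1.45 in WT, with overlap. Among the tested genes with these numbers Hoxa4 had a log2 change of -0.042 and Hoxb5 one of 0.25, with limma adjusted p of 0.871 and 0.478.

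By number, the median log2 change of the 10 tested genes numbered 1 to 5 was 0.010 and that of the 6 numbered 6 to 9 was 0.53. The median over all 13911 genes was 0.014 and over all 17 tested Hox genes 0.13. All 6 tested genes numbered 6 to 9 had a higher mean in KO, and 7 of 10 numbered 1 to 5 did. In the Hoxb cluster the log2 change was 0.11 in Hoxb2, 0.15 in Hoxb4, 0.25 in Hoxb5, 0.18 in Hoxb6, 0.46 in Hoxb7 and 0.61 in Hoxb8. This division by number was chosen after the values were seen, and the difference between the sets was not tested. Without KO 3 the median for numbers 6 to 9 was 0.35. Without KO 3 the median of all tested Hox genes was 0.055, without KO 2 it was 0.22, and after GC correction it was 0.0084.

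**Figure D3:**
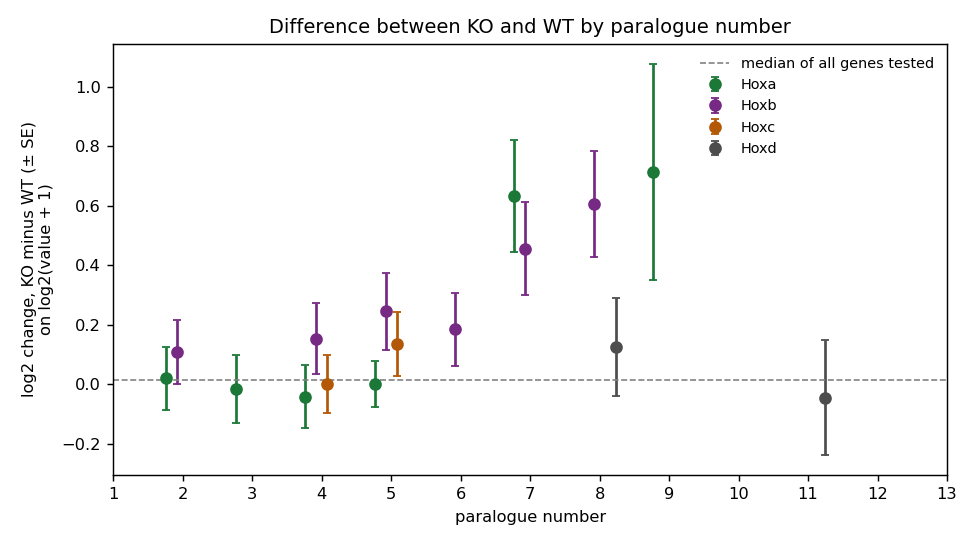
Difference between KO and WT on log2(value + 1) (y axis, bars of 1 SE from limma) against paralogue number (x axis) for 16 tested Hox genes, coloured by cluster. The genes shown with numbers 1 to 5 lie between -0.042 and 0.25 around the dashed median of all genes (0.014), and Hoxa7, Hoxb7, Hoxb8 and Hoxa9 lie between 0.46 and 0.71.

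As a share of each library's own Hox signal, these genes were again highest in KO 3. With Hoxa3 left out for its level, the genes numbered 6 to 9 made up 22.1%, 23.6% and 29.8% of the summed Hox signal in the KO libraries, against 19.1%, 19.0% and 17.0% in the WT libraries. Their summed value was 16.6, 14.6 and 24.2 in KO and 11.7, 12.9 and 10.498 in WT. The summed value of the genes numbered 1 to 5, again without Hoxa3, was 57.5, 46.6 and 55.1 in KO and 48.6, 53.4 and 49.9 in WT, with overlap. These sums were chosen after the values were seen and are given as a description.

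**Figure D4:**
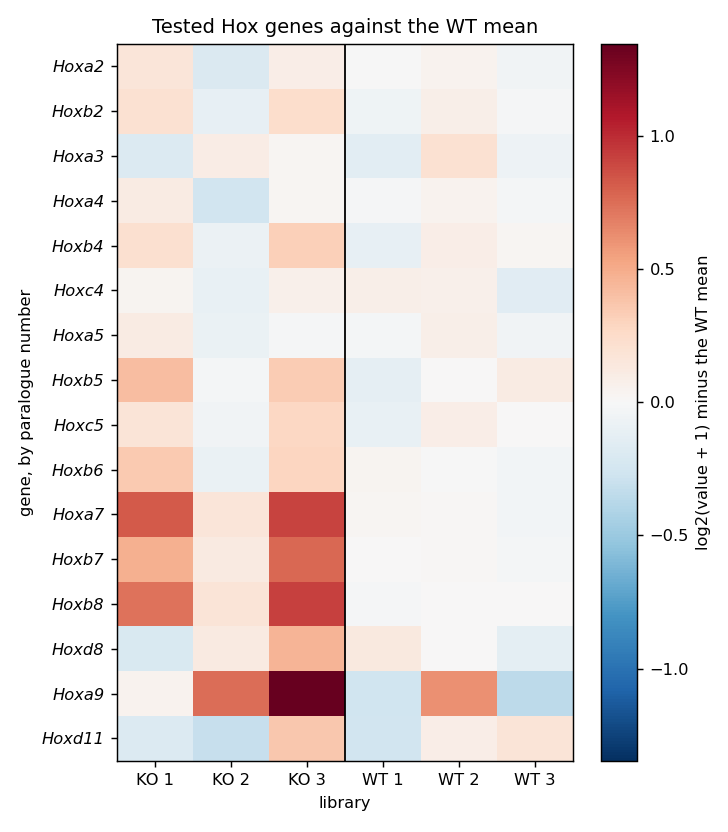
The same 16 tested Hox genes (rows, ordered by paralogue number) in each library (columns) as log2(value + 1) minus the mean of the 3 WT libraries, red for higher and blue for lower. Hoxa7, Hoxb7 and Hoxb8 are red in KO 1 and KO 3 and paler in KO 2, while Hoxa9 is high in KO 2, KO 3 and WT 2.

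Promoter sequences are shown for Hoxa7 and Hoxb8, the tested genes with groups apart that have an entry, for Hoxa6, apart at a low level, and for Hoxa5, which was high with overlapping groups. They are the 250 bases before the RefSeq start, from build GRCm38.p6, read 5′ to 3′ on the strand of the gene, and 19 of the 33 genes had an entry (21 windows). The windows are chr6:52204588-52204837 (minus strand) for Hoxa5, chr6:52208673-52208922 (minus) for Hoxa6, chr6:52218574-52218823 (minus) for Hoxa7 and chr11:96281655-96281904 (plus) for Hoxb8. The start used for Hoxa7 lies 138 bases from the nearest start in GENCODE and that for Hoxa6 50 bases from it. Capitals mark every match, on either strand, to 5 motifs. CCAAT is a box bound by the factor NF-Y, and TATAAA is the core promoter box of that type. TTTATG is a core of sites bound by Cdx factors, and TGATTNAT is one of sites that Hox and Pbx proteins bind together. AGGTCA is the repeat unit in sites of retinoic acid receptors.
Hoxa5: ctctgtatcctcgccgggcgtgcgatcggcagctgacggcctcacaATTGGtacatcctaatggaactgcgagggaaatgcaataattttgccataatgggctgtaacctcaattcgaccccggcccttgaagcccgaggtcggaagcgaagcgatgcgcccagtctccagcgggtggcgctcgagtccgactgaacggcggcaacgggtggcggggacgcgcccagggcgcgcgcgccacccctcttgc
Hoxa6: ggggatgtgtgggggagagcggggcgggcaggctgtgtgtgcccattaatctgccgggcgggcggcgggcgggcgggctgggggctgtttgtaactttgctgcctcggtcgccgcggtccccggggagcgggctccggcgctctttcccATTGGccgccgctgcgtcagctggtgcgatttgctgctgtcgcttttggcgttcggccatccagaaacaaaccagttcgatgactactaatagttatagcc
Hoxa7: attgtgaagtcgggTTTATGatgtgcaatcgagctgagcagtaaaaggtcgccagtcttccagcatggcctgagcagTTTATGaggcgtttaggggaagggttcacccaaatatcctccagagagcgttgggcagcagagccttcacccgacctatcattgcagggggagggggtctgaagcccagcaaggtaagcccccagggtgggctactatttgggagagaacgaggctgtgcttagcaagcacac
Hoxb8: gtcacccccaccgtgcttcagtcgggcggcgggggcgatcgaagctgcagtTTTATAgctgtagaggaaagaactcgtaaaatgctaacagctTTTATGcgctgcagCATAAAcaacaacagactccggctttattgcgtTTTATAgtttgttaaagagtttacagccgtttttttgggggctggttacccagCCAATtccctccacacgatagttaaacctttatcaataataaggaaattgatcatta

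The letters TTTATG were found at 2 positions in the Hoxa7 window, 236 and 173 bases before the start, and at 2 in the Hoxb8 window, 157 and 143 bases before it, the second on the other strand. No match to one motif overlapped a match to another in the windows shown. TTTATG occurred in 4 of the 21 Hox windows and in 10.8% of 32851 windows of all genes. TATAAA was in 3 Hox windows and 12.4% of all, with 2 matches in Hoxb8, and CCAAT was in 11 Hox windows and 33.8% of all, once each in Hoxa5, Hoxa6 and Hoxb8. AGGTCA was in 5 Hox windows and 14.02% of all, and TGATTNAT in 2 and 2.82%, neither in the windows shown. The windows also differed in CpG dinucleotides, with 28 in Hoxa5, 24 in Hoxa6, 7 in Hoxa7 and 12 in Hoxb8, where the median was 13 over Hox windows and 6 over all. GC content was 63.6%, 65.2%, 54.8% and 44.4% in that order. These matches are letters in a window and do not show binding.

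Among the cofactors and regulators of the clusters 0 genes passed limma over all genes, and 9 of the 57 tested had an unadjusted p under 0.05, against 10.3% of all genes tested. Among the ParaHox and caudal genes only Pdx1, the pancreatic ParaHox factor, was present. Cdx1 (0.0246 to 0.0799), Cdx2 (0.0111 to 0.0501) and Cdx4 (0.01 to 0.0177) were near the floor in all libraries. The KO mean was the higher one in 8 of 10 tested cofactors. Their median log2 change was 0.14, and 1 was at an unadjusted p of 0.05. Meis1 was 30.3, 27.4 and 34.4 in KO and 26.7, 29.8 and 26.0 in WT, and Meis2 was between 26.3 and 35.2. Pbx3 was lower in every KO library, at 12.98, 12.2 and 12.8 against 14.2, 14.7 and 14.2 in WT (limma adjusted p 0.469), and Pbx2 was higher in each, at 19.2, 18.3 and 18.1 against 15.7, 16.4 and 17.7 (0.473).

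Genes of retinoic acid signalling held 4 of 15 tested members with KO above WT and an unadjusted p under 0.05, with a median log2 change of 0.17. Over all genes tested, 5.89% were higher in KO at that p and 7.67% had KO above WT. Cyp26b1, which breaks down retinoic acid, was 2.81, 2.03 and 5.24 in KO and 1.29, 1.46 and 1.97 in WT. Crabp2, which carries retinoic acid to its receptors, was 3.72, 2.61 and 3.81 in KO and 1.80, 2.23 and 2.44 in WT. In both genes KO 2 was the lowest KO library. Dhrs3, which turns retinal back to retinol, was 11.9, 12.9 and 14.1 in KO and 10.47, 9.31 and 9.93 in WT, and the receptor Rarg was 2.86, 3.51 and 2.74 in KO and 2.09, 2.06 and 2.65 in WT. Each of the 4 had a limma adjusted p of 0.469. Aldh1a2, the synthesizing enzyme of mesenchyme, was 7.72, 6.02 and 6.73 in KO and 7.502, 7.07 and 7.91 in WT, with overlap. Stra6, a receptor for retinol uptake, was the 1 tested member with every KO value below WT, at 1.78, 1.8257 and 1.56 against 1.838, 1.8263 and 2.32 (limma adjusted p 0.544).

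Polycomb genes were split, with 9 of 18 tested members higher and 9 lower in KO and a median log2 change of 0.012. Ezh2, the histone H3 lysine 27 methyltransferase, was 11.5, 12.0 and 12.5 in KO and 13.9, 14.04 and 12.6 in WT, and its partner Suz12 was 38.4, 40.4 and 41.2 against 46.4, 46.0 and 42.4. Bmi1, of Polycomb repressive complex 1, was 29.6, 28.7 and 30.4 in KO and 34.9, 32.9 and 31.9 in WT, whereas Ring1 of that complex was 1.92, 2.03 and 1.61 in KO and 1.23, 1.36 and 1.48 in WT. Groups were apart in Ezh2, Suz12, Bmi1 and Ring1, and the limma adjusted p was 0.469 in each. They were also apart in Eed and Rbbp7, both lower in KO, and in Phc1, higher in KO (limma adjusted p 0.481, 0.512 and 0.473). Every KO value was thus above WT in 2 of the 18 tested Polycomb genes and below it in 5. For comparison, KO and WT values did not overlap in 16.4% of the 13911 tested genes, with both directions counted. Of 13 tested Trithorax genes, which keep Hox genes active, 9 had the higher mean in KO libraries (median log2 change 0.083). Dpy30, a subunit of their methyltransferase complexes, was the 1 member at an unadjusted p of 0.05 and was 20.1, 20.3 and 19.6 in KO and 23.4, 22.3 and 22.5 in WT.

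Of 19 listed noncoding transcripts of the Hox clusters 9 were matched, none of them a microRNA gene, and 3 had a mean of at least 1. Hoxaas2 was between 3.13 and 4.86, Hoxb3os is given above, and Hoxaas3, whose exons overlap those of Hoxa7 in the annotation (20.4% of the exonic bases of Hoxa7), was 1.81, 1.02 and 1.81 in KO and 0.875, 1.199 and 1.02 in WT. KO 1 and KO 3 were thus the highest libraries for Hoxaas3 as they were for Hoxa7. The 2 genes lie on opposite strands and strand is not kept, so reads from the shared bases may count for both. Their likeness is therefore not independent. Hoxb5os was 0.598, 0.345 and 0.346 in KO and 0.0925, 0.0618 and 0.220 in WT, apart at a level that was not tested. Hotairm1 was 0.440, 0.234 and 0.496 in KO and 0.425, 0.547 and 0.427 in WT.

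Markers of other tissues and cell types were measured beside these results, and their part in the Hox differences was not tested. Of the gut and splanchnic mesenchyme factors 13 of 14 were matched and 9 tested, 7 with a higher mean in KO. Every KO value was above WT in 4 of the 9, against 7.67% of all genes tested. The summed value of the matched factors ranged from 76.3 to 92.1 in KO and from 72.5 to 74.9 in WT. Six2, a factor of posterior stomach mesenchyme and of kidney, was 4.50, 1.35 and 3.14 in KO and 0.122, 0.119 and 0.387 in WT, and passed over all genes only without KO 2 (limma adjusted p 0.0277, against 0.469 with all libraries). Barx1, a stomach mesenchyme factor, was 5.04, 3.14 and 2.90 in KO and 1.44, 1.18 and 2.70 in WT. Nkx3-2, of spleen and gut mesenchyme, was 2.25, 2.04 and 2.58 in KO and 0.817, 0.656 and 1.47 in WT, and Nkx2-5, of spleen and pylorus, was 0.408, 0.315 and 0.770 against 0.0313, 0.0501 and 0.131. In Six2, Nkx3-2 and Nkx2-5 KO 2 was the lowest KO library, as in Hoxa7, Hoxb7 and Hoxb8, but in Barx1, Gata4 and Hand2 KO 3 was. Groups overlapped in Isl1, Gata4, Hand2 and Wt1, with log2 changes of -0.048, -0.084, 0.025 and 0.16. They overlapped as well in Hlx, Foxf2 and Tbx5, which were not tested. The spleen factor Tlx1 was 3.15, 2.41 and 8.71 in KO and 2.53, 2.07 and 2.71 in WT, with overlap. After GC correction the log2 change went from 1.65 to 1.38 in Six2, from 0.77 to 0.45 in Barx1 and from 0.75 to 0.40 in Nkx3-2.

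**Figure D5:**
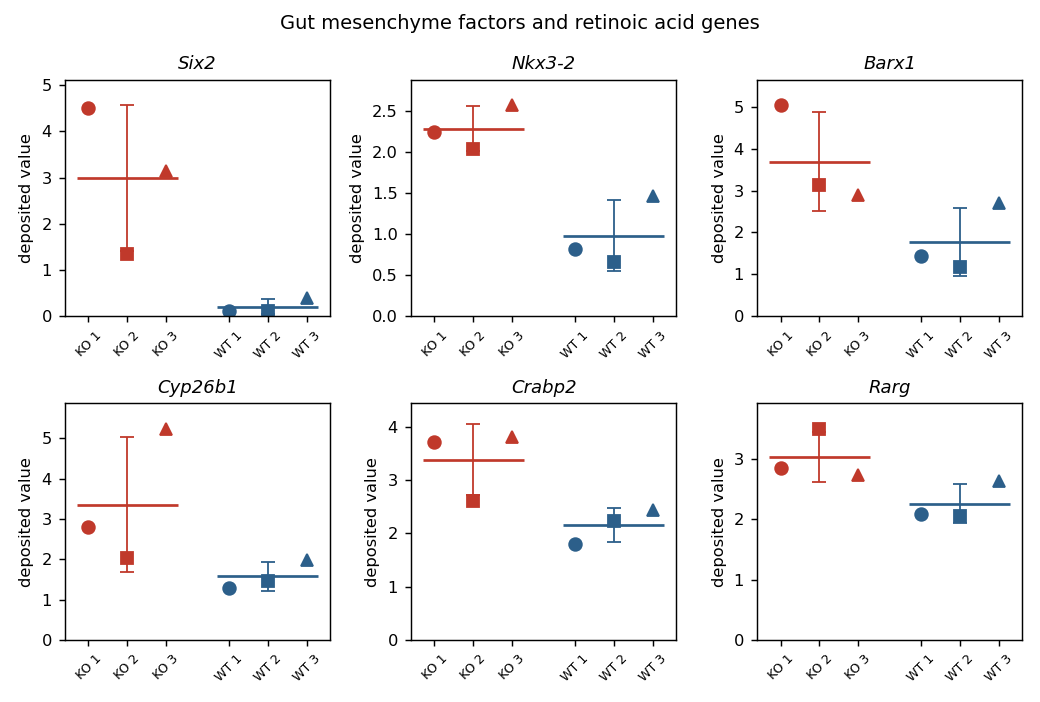
Deposited values (y axis, from 0) of 3 gut mesenchyme factors and 3 retinoic acid genes, 1 point per library (x axis), with lines at the group means and bars of 1 SD (n = 3 each). All KO values lie above all WT values in each gene, and KO 2 is the lowest KO library in Six2, Nkx3-2, Cyp26b1 and Crabp2. The genes were chosen after their values were seen. KO was above WT in 4 of 9 tested gut mesenchyme factors and 4 of 15 tested retinoic acid genes, against 7.67% of all genes tested.

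The general mesenchyme markers were split, with the KO mean above that of WT in 7 of 14 tested and below it in 7, and their sum was 813 to 896 in KO and 864 to 894 in WT. Within the list, Pdgfrb was 31.3, 28.8 and 32.1 in KO and 23.0, 23.5 and 27.3 in WT, while Dcn (decorin) was 37.6, 47.7 and 49.7 against 71.2, 71.2 and 56.2. Epithelium markers summed to 563 to 831 in KO and 618 to 746 in WT, and those of neural crest, glia and neurons to 92.2 to 104 and 97.5 to 109, with overlap in both. The sum of 5 matched spinal cord markers was 3.17 to 5.19 in KO and 4.12 to 4.68 in WT, with Foxb1 at the floor in 5 libraries. Limb and tail markers summed to 2.74 to 3.10 in KO and 2.61 to 2.80 in WT. The sum of 8 endothelium markers was 105 to 129 in KO and 90.3 to 95.3 in WT, apart, and in 8 of 8 the mean was higher in KO. Over all genes tested 7448 of 13911 had the higher mean in KO. In 5 of the 8 markers every KO value was above WT, against 7.67% of all genes tested, and 0 passed limma over all genes. Smooth muscle (40.7 to 47.5 against 44.1 to 48.4), leukocyte (19.5 to 25.9 against 17.8 to 22.2) and erythroid sums (2085 to 3647 against 1726 to 3282) overlapped. Of 5 tested leukocyte markers 2 had every KO value above WT, as had 7.67% of all genes tested. Csf1r, Aif1 and Fcer1g overlapped, and Aif1 had the lower mean in KO (log2 change -0.096). Tyrobp, a signalling adaptor of myeloid cells, was 4.53, 3.82 and 4.58 in KO and 2.65, 2.53 and 3.62 in WT, and Cd68, a macrophage marker, was 3.50, 3.53 and 2.97 against 1.84, 2.03 and 2.85 (limma adjusted p 0.469 for both).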

How the data were processed

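Each library has 1 deposited table with a signal value for every Ensembl gene, and no unit is stated per the file headers. The submitters' processing notes name CASAVA 1.82, Bowtie 0.12.7 and build mm9. How genes were annotated, counted and normalized is not given in the sources used here, so no depth or counting interval can be given. RNA libraries were made with a TruSeq RNA v2 kit, per the labels' protocols, which does not mark strand.

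Symbols were found for 22624 of 24389 identifiers. Values were used as deposited. Genes with a mean of at least 1 (13911) entered limma 3.58.1 under R 4.3.3, as log2(value + 1) (trend, two-sided, group only, Benjamini-Hochberg over all tested genes, threshold 0.05). On this scale the change of low genes is understated, and an exact test of 3 against 3 cannot give a p under 0.1. The members, lists and tests were chosen with earlier results of these data known. Values in every library are given for the 3 highest genes of each cluster. They are also given for Hox genes with groups apart, an unadjusted p under 0.05 or a floor value in some libraries. Of the list members with the lowest p only some are given, and those of the endothelium, epithelium and smooth muscle lists, among others, are not. Other genes were chosen after their values were seen. Alternatives were other scalings, filters, pseudocount 0.1, threshold 0.10, the replicate block, GC correction (loess, span 0.3), a term for the first component's side and leaving out each library. The fit was tested on simulated data. GENCODE and RefSeq (GRCm38) gave names, exon lengths, overlaps and promoters. No coordinates were converted. The values of 1 member are not reported here, though counts and medians include it. Python 3.11.15, pandas 2.3.3 and matplotlib 3.10.9 served for tables and plots.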

Additional observations from a re-analysis of the deposited data

How the results depend on the processing

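The count of present Hox genes was 18 and 14 at means of at least 0.5 and 2, and 16 to 17 when a library was left out. In limma over all genes 0 Hox genes passed in each alternative run except without KO 2, where Hoxa7 did (range 0 to 1 over left-out libraries), as did the marker Six2. The cofactor, ParaHox, Polycomb, Trithorax, retinoic acid, noncoding and neighbour lists gave 0 throughout. The count over all genes, 2 with all libraries, was 1 without a filter, 0 with the replicate block, 4 after GC correction, 1 after GC correction with the replicate block, and 1 to 8 when a library was left out. Hox genes at an unadjusted p of 0.05 numbered 7 without a filter (33 Hox genes entering), 1 after GC correction with the replicate block, 5 with a term for the first component's side, and 3 to 7 when a library was left out. Tested Hox genes with KO above WT in every library numbered 6 without a filter, 0 after GC correction, and 3 to 9 when a library was left out. For the alternative runs the matching shares over all genes were not counted, and groups are apart more easily with fewer libraries. The median for paralogues 6 to 9 stayed between 0.35 and 0.73 over 15 alternatives, and that for paralogues 1 to 5, near 0, ran from -0.024 to 0.097. Over the same alternatives the log2 change of Hoxb8 ranged from 0.45 to 0.82 (adjusted p 0.082 to 0.907), of Hoxb7 from 0.30 to 0.64 (0.219 to 0.907) and of Hoxa7 from 0.49 to 0.98 (0.0496 to 0.907). Same-numbered KO and WT libraries did not deviate together (correlations across genes of -0.22, -0.40 and -0.64). The labels state no pairing, and these correlations cannot show whether same-numbered libraries share an origin. With the replicate block Bicc1 had a limma adjusted p of 0.088. Where a value moved, the cause was not tested. The unknown depth limits what can be said of genes near the floor.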

Other observations

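Genes that flank the Hox clusters were measured as a separate set. Of 27 listed neighbours 24 were matched and 19 tested, of which 6 were higher on average in KO and 13 lower. Their median log2 change was -0.11, with 2 at an unadjusted p of 0.05, where 10.3% of all genes tested were. Hnrnpa3, an RNA-binding protein gene near Hoxd, was 101, 95.8 and 104 in KO and 122, 119 and 112 in WT. Mtx2, a mitochondrial import gene beside Hoxd, was 8.10, 7.42 and 8.03 in KO and 9.63, 8.89 and 8.62 in WT. Calcoco1, near Hoxc, was 7.91, 7.62 and 9.18 in KO and 7.13, 7.09 and 7.15 in WT. Groups were apart in these 3 genes, and each had a limma adjusted p of 0.469. They were apart as well in Nfe2l2 and Hibadh, lower in KO, and in Nfe2l1, higher in KO. Every KO value was thus above WT in 2 of the 19 tested neighbours and below it in 4. For comparison, KO and WT values did not overlap in 16.4% of the 13911 tested genes, with both directions counted. Evx2, the homeobox gene at the posterior end of Hoxd, was at or near the floor (0.01 to 0.0313). Hoxa9, the next gene after Hoxa7, and Hoxb9, the next after Hoxb8, did not have groups apart, while Hoxb8, the next after Hoxb7, did.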
